A study of Rattus norvegicus with 12 samples.

Results

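The fetal liver is the main site of red cell production before birth, and 39 genes of the erythroid lineage were followed here in liver RNA of rat fetuses whose mothers had been fed or fasted. They are listed genes in 5 roles: 9 transcription factors and partners of the erythroid programme, 8 proteins of the membrane skeleton, 9 surface and blood group proteins, 8 genes of heme synthesis and transport and 5 genes of the red cell cytosol. The array platform named a probe for 34 of the 39, and all 34 were among the 10174 genes bright enough to be tested. The other 5 (Ermap, Kel, Icam4, Tspo2 and Trim58) had no probe linked to their symbol alone and were not analysed here. The list was drawn up by function, with no measured value in its rule, but with earlier results of these data known.

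All fetuses were of the Sprague Dawley strain and were taken by Caesarean section on day 19 of gestation, with term at 21 days. Dams ate freely up to delivery in the fed groups, and in the fasted groups went without food for 48 hr from day 17, a model of intrauterine growth restriction. There were 3 dams per diet. From each diet 3 arrays held total liver RNA and 3 held polysome RNA, the RNA loaded with several ribosomes, taken from pooled preparations of a sucrose gradient, which gave 12 arrays in 4 groups. The labels call the 3 arrays of a group biological replicates and do not say how fetuses of a litter were combined, so p-values measure the spread between these arrays.

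In the erythroid programme the zinc finger factor GATA1, with its cofactor FOG1 (Zfpm1) and a complex built on TAL1 and LMO2, binds GATA motifs, and KLF1 binds CACC motifs. Together they switch on the genes of heme synthesis, the globins, the spectrin and ankyrin skeleton and the band 3 and Rh proteins of the membrane. Erythropoietin, through its receptor EPOR, keeps the precursors alive, and GFI1B represses genes of other lineages while the cells mature. Liver at this stage also holds hepatocytes, endothelium, macrophages and other blood precursors, and in whole tissue fewer cells of a type and less RNA per cell cannot be told apart.

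The stretch of 250 bases before the start site is shown for 3 of these genes, in which the motifs of those factors are found: Gfi1b, which rose with fasting in polysome RNA, Klf1, a factor higher in polysomes, and Rhag, a surface protein gene lower in polysomes. These 3 were picked after their values were seen. The sequences are from RefSeq on build GRCr8, are read 5′ to 3′ on the gene's own strand, and end at the base before the start. Capitals mark GATAA or its reverse complement TTATC, and CACCC or its reverse complement GGGTG. The window lies at chr3:32350902-32351151 for Gfi1b, at chr19:40158652-40158901 for Klf1 and at chr9:27594391-27594640 for Rhag, each on the minus strand and upstream of the annotated transcript.
Gfi1b: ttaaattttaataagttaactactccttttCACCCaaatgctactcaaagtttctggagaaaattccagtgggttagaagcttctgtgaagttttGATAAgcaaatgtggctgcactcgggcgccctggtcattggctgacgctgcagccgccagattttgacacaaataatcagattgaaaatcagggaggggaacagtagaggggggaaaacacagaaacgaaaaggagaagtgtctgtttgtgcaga
Klf1: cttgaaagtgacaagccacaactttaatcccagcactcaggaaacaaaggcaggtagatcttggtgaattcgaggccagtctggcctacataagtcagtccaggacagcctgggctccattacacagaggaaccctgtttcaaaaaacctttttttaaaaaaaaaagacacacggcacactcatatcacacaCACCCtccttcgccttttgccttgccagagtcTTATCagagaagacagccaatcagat
Rhag: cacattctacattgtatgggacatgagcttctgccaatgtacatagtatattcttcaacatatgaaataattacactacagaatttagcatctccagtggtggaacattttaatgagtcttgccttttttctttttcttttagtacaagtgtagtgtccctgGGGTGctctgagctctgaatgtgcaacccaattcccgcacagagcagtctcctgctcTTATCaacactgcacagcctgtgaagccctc
In Klf1 a TTATC begins 26 bases before the start and a CACCC 58 bases before it. In Rhag the TTATC begins 31 bases and the GGGTG 88 bases before the start. Both motifs of Gfi1b are more distant, with GATAA at 155 and CACCC at 220 bases.

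RefSeq gave 35 such windows for 31 of the 39 genes. GATAA or TTATC occurred in 42.9% of them and in 23.5% of all 33469 windows of that length. CACCC or GGGTG occurred in 51.4% of the erythroid windows, beside 49.2% of all. Windows with both motifs made up 31.4% (11 of 35), beside 9.59% of all. Tspo2 has 4 of the 35 windows, some of them overlapping, and Hemgn 2. Counted once per gene, both motifs were found in 11 of 31 erythroid genes (35.5%), beside 10.2% of all 27457 genes. By role, they were found in 5 of 8 surface and blood group genes, 2 of 3 cytosol genes, 2 of 6 membrane skeleton genes, 2 of 7 regulators and 0 of 7 heme synthesis genes. A match of letters is not a binding site, and no test was made of these shares.

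The values are intensities, taken here as log2(intensity + 1), and a level of one gene's probe is not set against another's. Over the 12 arrays the mean level of the 34 genes ran from 8.42 (Aqp1) to 13.3 (Urod), and 5 lay above 13, where the brightest probe of any gene reached 14.4. The spread between arrays of a group (SD) had a median of 0.096 over the 34 genes, from 0.044 for Slc4a1 to 0.38 for Aqp1. No 2 arrays were identical, and their median intensities ran from 101.3 to 108.3. Arrays of a group did differ in the erythroid genes as a whole: fed total array 1 was the highest of its group for 28 of 34 genes and fed total array 3 the lowest for 27, and fed polysome array 1 was the highest for 22 and array 3 the lowest for 20. Of 11 exocrine pancreas markers with a probe, 7 were bright enough to be tested, and fed total array 1 also stood apart in these. Their summed intensity was 3477 there, 845 and 1392 on the other fed total arrays and 601 to 689 on the fasted total arrays. Of the 7, Cpa1 was called lower with fasting in total RNA (-1.98, limma adjusted p = 0.0486). Without fed total array 1 the counts of erythroid genes were 0 higher and 0 lower with fasting in total RNA and 14 higher and 2 lower for polysome against total RNA in the fed, beside 0 and 0, and 13 and 2, with it.

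**Figure D1:**
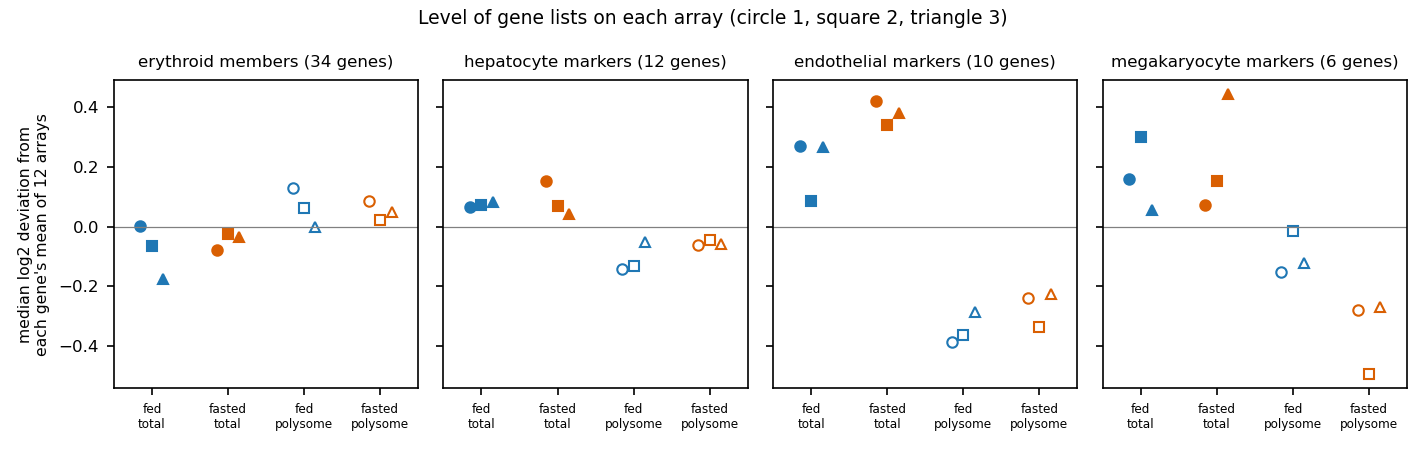
Median deviation, in log2 units, of each gene list from its genes' own mean over 12 arrays, with 1 point per array, for the 34 erythroid genes and for the markers of hepatocytes, endothelium and megakaryocytes (blue, fed; orange, fasted; filled, total RNA; open, polysome RNA; circle, square and triangle, arrays 1, 2 and 3). The erythroid genes lie between -0.18 and 0.00 in fed total RNA and between 0 and 0.13 in fed polysome RNA, with the fasted arrays inside those ranges.

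The first comparison asked what the maternal fast did to the transcriptome. In total RNA no erythroid gene passed the test: 0 of 34 rose and 0 fell at an adjusted p under 0.05, where 0.737% of all tested genes rose and 0.295% fell (limma, Benjamini-Hochberg over 10174 genes). Unadjusted, 4 of the 34 had a p under 0.05, beside 16.2% of all genes. The median difference, fasted minus fed, was 0.00 over the 34 genes and 0.00 over all genes, and the values ran from -0.26 to 0.66. For 32 of the 34, all but Gfi1b and Aqp1, the 95% confidence interval lay wholly inside a 1.5-fold change either way. The fasted arrays lay wholly above the fed arrays for 3 genes (Gfi1b, Tmod1 and Alad) and wholly below for 1 (Ahsp), beside 12.9% and 11.9% of all genes.

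In polysome RNA, which asks the same of the translatome, 1 of the 34 genes rose and 0 fell, beside 1.59% and 0.423% of all genes. The gene that rose was Gfi1b. The median difference was -0.01 over the 34 and 0.02 over all genes, the range was -0.22 to 0.45, and 32 intervals again lay inside 1.5-fold, the same 2 genes being the exceptions. Unadjusted, 3 of 34 had a p under 0.05, beside 20.9% of all genes. Fasted arrays were all above the fed arrays for 3 genes (Gfi1b, Ahsp and Aqp1) and all below for 4 (Bcl11a, Epor, Sptb and Hebp1), beside 12.4% and 8.38% of all genes.

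**Figure D2:**
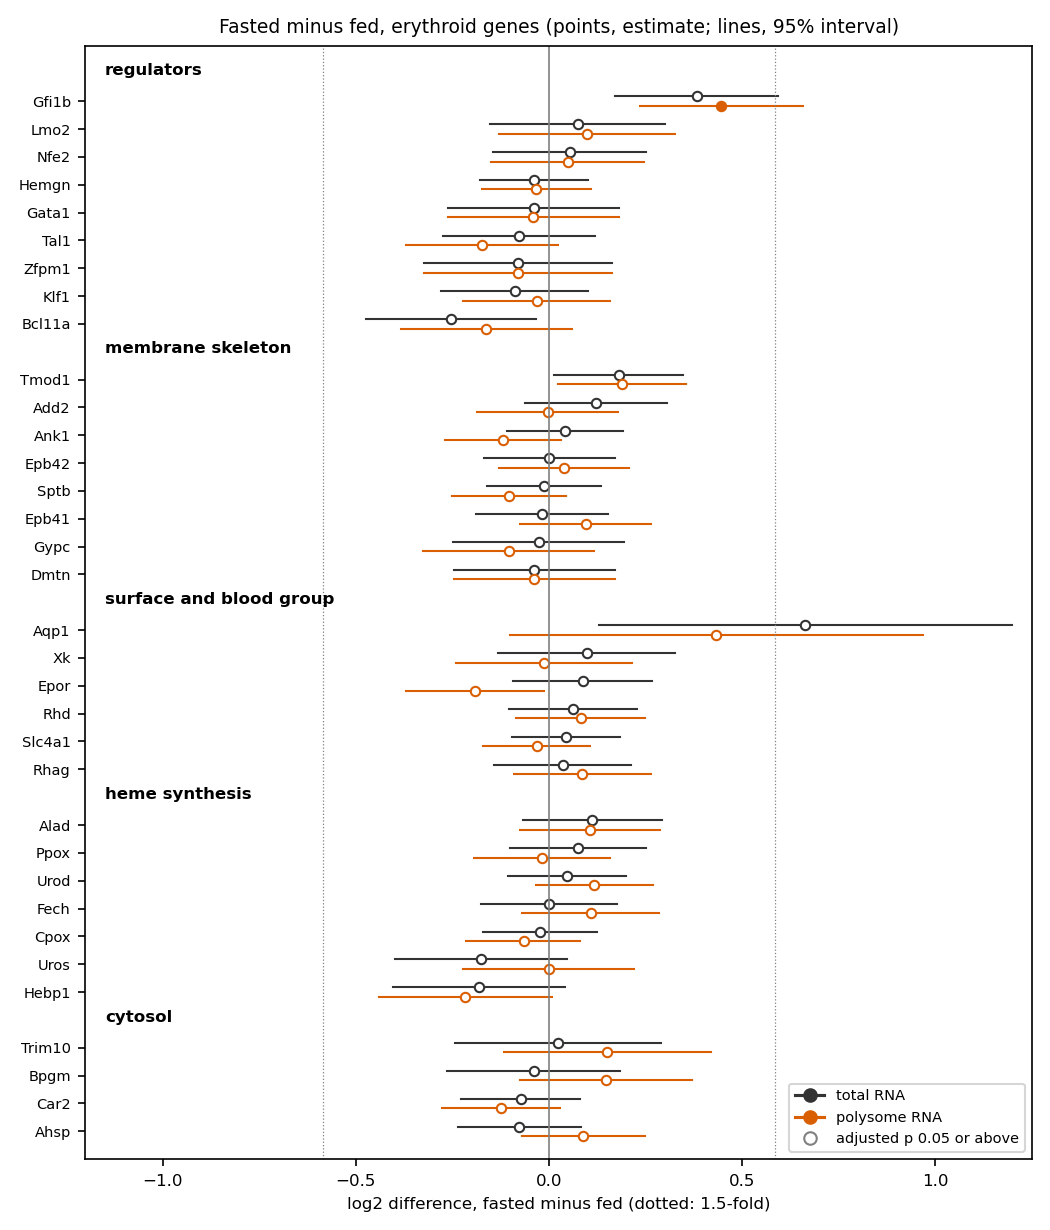
Fasted minus fed difference (log2 units, x axis) of each of the 34 erythroid genes by role, in total RNA (black) and polysome RNA (orange), with 95% intervals; filled points passed an adjusted p of 0.05 and dotted lines mark 1.5-fold. The Gfi1b value in polysome RNA, 0.45, is the filled point, and Aqp1 has the widest intervals.

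Among the regulators, Gfi1b read 11.70, 11.63 and 11.60 on the fed total arrays and 11.93, 12.20 and 11.94 on the fasted total arrays. On the fed polysome arrays it read 11.81, 11.63 and 11.43, and on the fasted polysome arrays 12.06, 12.10 and 12.06. In both fractions all fasted arrays were above all fed arrays. The difference was 0.45 ± 0.098 (SE) in polysome RNA, a 1.36-fold rise (95% interval 0.24 to 0.66, limma adjusted p = 0.0417). In total RNA it was 0.38 ± 0.098, or 1.30-fold, with an adjusted p of 0.0801. The call in polysome RNA is close to the threshold: it was lost in 10 of 21 alternatives, among them leaving out 1 array, with adjusted p values up to 0.133 and differences between 0.35 and 0.54 (limma). Leaving out fed total 1, 2 or 3, fasted total 1, fed polysome 2 or 3, or fasted polysome 1 or 3 each lost it, and without fed polysome 3, the lowest array, the difference was 0.35 with an adjusted p of 0.118.

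GFI1B also acts in megakaryocytes. Of 12 megakaryocyte markers 6 were measured, and 0 of 6 passed the test with fasting in either fraction. Their summed intensity was 5374 to 6117 on fed total arrays and 5219 to 6496 on fasted total arrays. In polysome RNA it was 4814 to 5380 in the fed and 3875 to 4457 in the fasted. The sums overlapped between the diets in total RNA and did not in polysome RNA. None of the 6 was under the level set for testing. Their part in the Gfi1b values was not tested.

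Bcl11a, a repressor of globin genes that also acts in B lymphoid precursors, read 10.52, 10.43 and 10.17 in fed and 9.96, 10.28 and 10.11 in fasted total RNA. The groups overlapped, and the difference was -0.26 ± 0.10 (adjusted p = 0.239, limma). In polysome RNA it read 10.89, 10.95 and 10.79 in the fed and 10.64, 10.79 and 10.72 in the fasted, with all fasted arrays below the fed ones and a difference of -0.16 ± 0.10 (adjusted p = 0.397). Of 7 B lymphoid markers with a probe, 6 were bright enough to be tested. These 6 summed to 1257 to 1326 in fed and 1072 to 1316 in fasted total RNA. In polysome RNA they summed to 950 to 982 in the fed and 1012 to 1301 in the fasted, and 0 of 6 were called in either fraction. Their part in the Bcl11a value was not tested.

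Gata1, the central factor of the lineage, read 10.88, 10.72 and 10.61 in fed and 10.63, 10.83 and 10.63 in fasted total RNA. Its polysome values were 10.82, 10.71 and 10.51 in the fed and 10.78, 10.58 and 10.56 in the fasted. All 4 groups overlapped, with fasting differences of -0.04 ± 0.10 in each fraction. Klf1, which drives globin and membrane genes, read 11.86, 11.74 and 11.65 in fed and 11.60, 11.79 and 11.60 in fasted total RNA, a difference of -0.09 ± 0.089. In polysome RNA it read 12.14, 11.996 and 11.94 in the fed and 12.10, 11.90 and 11.99 in the fasted, a difference of -0.03 ± 0.089. Thus neither factor differed with fasting beyond its spread, and the 95% intervals for Gata1 reached from -0.26 to 0.18 in total RNA. The median over the 9 regulators was -0.04 in total and -0.03 in polysome RNA. Of the others (Tal1, Lmo2, Zfpm1, Nfe2 and Hemgn), none passed in either fraction, and their differences ran from -0.17 for Tal1 in polysome RNA to 0.10 for Lmo2 in polysome RNA.

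The 8 membrane skeleton genes, which encode beta spectrin (Sptb), ankyrin (Ank1), the spectrin linkers Epb41 and Epb42, tropomodulin (Tmod1), beta adducin (Add2), dematin (Dmtn) and glycophorin C (Gypc), gave 0 calls with fasting in either fraction. Tmod1, which caps the actin filaments, had the smallest p among them, with differences of 0.18 ± 0.077 in total RNA (adjusted p = 0.273, limma) and 0.19 ± 0.077 in polysome RNA (adjusted p = 0.184). The median of the 8 was -0.01 in total RNA and -0.02 in polysome RNA. None of their intervals reached 1.5-fold.

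Of the 6 surface genes measured, 0 passed with fasting. Slc4a1, the band 3 anion exchanger, read 13.24, 13.13 and 13.15 in fed and 13.17, 13.27 and 13.21 in fasted total RNA, and 13.14, 13.13 and 13.14 in fed and 13.06, 13.15 and 13.11 in fasted polysome RNA. It was the steadiest of the 34 genes, with differences of 0.04 ± 0.065 and -0.03 ± 0.065. It lies near the top of the range of the array, as do Urod, Ahsp, Car2 and Cpox, which also had means above 13. How far such probes could still rise was not tested. Rhag and Rhd, the Rh complex, and Xk differed by -0.01 to 0.10 in either fraction.

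Aqp1, the water channel, varied most. It read 8.59, 8.14 and 7.86 in fed and 8.27, 8.91 and 9.40 in fasted total RNA, and the groups overlapped. In polysome RNA it read 8.19, 7.94 and 8.14 in the fed and 8.24, 8.47 and 8.86 in the fasted, with no overlap. The differences were 0.66 ± 0.25 (adjusted p = 0.209, limma) and 0.43 ± 0.25 (adjusted p = 0.345). Without fasted total 3, its highest array, the value in total RNA was 0.39, and without fasted polysome 3 the value in polysome RNA was 0.26. Aqp1 is also an endothelial gene, and 3 of 10 measured endothelial markers rose with fasting in total RNA: Esam by 0.40, Pecam1 by 0.43 and Fcgr2b by 0.60. Their summed intensity was 6627 to 7233 on fed total arrays and 8153 to 8242 on fasted total arrays, and 4425 to 4605 and 4821 to 5203 in polysome RNA, where only Fcgr2b rose among the 10. Their part in the Aqp1 values was not tested.

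Among the 7 heme genes measured, which cover porphobilinogen synthase (Alad), uroporphyrinogen synthase and decarboxylase (Uros and Urod), the 2 oxidases (Cpox and Ppox), ferrochelatase (Fech) and the heme binding protein Hebp1, 0 passed with fasting in either fraction. Alad read 11.69, 11.65 and 11.64 in fed and 11.77, 11.82 and 11.72 in fasted total RNA, every fasted array above every fed one, with a difference of 0.11 ± 0.084 (adjusted p = 0.564, limma). In polysome RNA it read 11.81, 11.60 and 11.65 against 11.96, 11.72 and 11.70, with overlap and a difference of 0.11 ± 0.084. Fech, which inserts the iron, read 12.30, 12.32 and 12.16 in fed and 12.25, 12.28 and 12.25 in fasted total RNA, a difference of 0.00 ± 0.082. Its fasted polysome values (12.74, 12.48 and 12.64) overlapped the fed ones (12.58, 12.54 and 12.40), a difference of 0.11 ± 0.082. Heme synthesis enzymes are also made by hepatocytes, and the 12 hepatocyte markers gave 0 calls with fasting in either fraction. Their summed intensities were 130410 to 133850 in fed and 130300 to 135640 in fasted total RNA. In polysome RNA they were 114420 to 124920 in the fed and 119970 to 120810 in the fasted. The part of hepatocytes in the heme gene values was not tested.

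In the cytosol, Ahsp, the chaperone of free alpha globin, read 13.24, 13.30 and 13.31 in fed and 13.23, 13.22 and 13.17 in fasted total RNA. In polysome RNA it read 13.04, 13.28 and 13.27 in the fed and 13.28, 13.28 and 13.28 in the fasted. The fasted arrays were thus below the fed ones in total RNA and above them in polysome RNA, with differences of -0.08 ± 0.074 and 0.09 ± 0.074, and neither passed the test (adjusted p = 0.679 and 0.536, limma). The polysome value rests on fed polysome 1, the lowest array: without it the difference was 0.01. Bpgm, which makes 2,3-bisphosphoglycerate, the carbonic anhydrase Car2 and Trim10 had differences from -0.12 to 0.15 in the 2 fractions, with 0 calls.

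**Figure D3:**
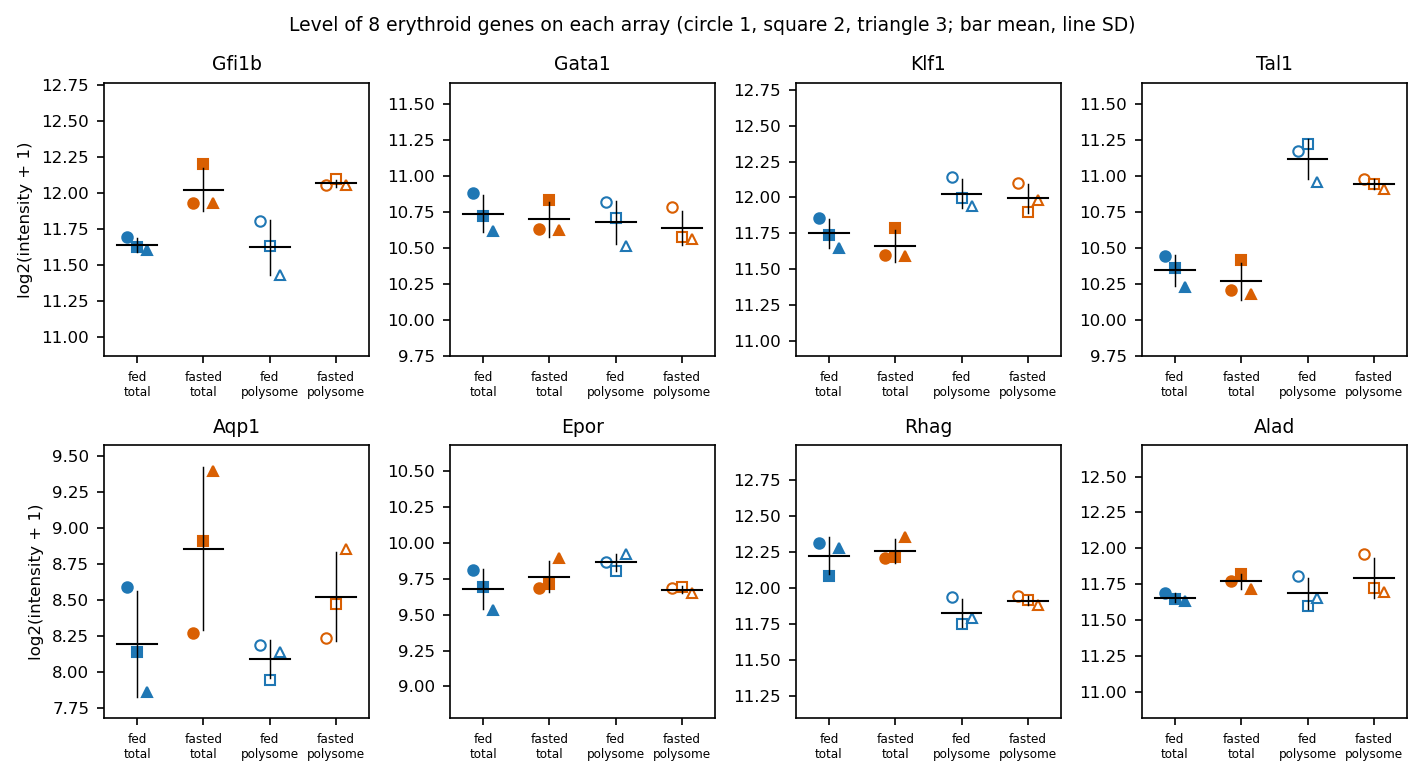
Level of 8 erythroid genes, log2(intensity + 1), on each of 12 arrays by group (blue, fed; orange, fasted; filled, total RNA; open, polysome RNA; circle, square and triangle, arrays 1, 2 and 3; bar, mean of 3; line, SD). Each panel has its own y range of equal height, and levels are not comparable between genes; Gfi1b is higher in both fasted groups, Tal1 and Klf1 in both polysome groups, and Rhag is lower in both polysome groups.

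Whether the fast acted differently on polysome RNA than on total RNA was tested as the difference of the 2 fasting effects. Here 0 of the 34 erythroid genes passed, as did 0% of all genes tested, with 1 of 34 and 5.4% of all genes at an unadjusted p under 0.05 (limma). That 1 gene was Epor. It read 9.81, 9.69 and 9.53 in fed and 9.69, 9.71 and 9.89 in fasted total RNA, which overlapped, and 9.86, 9.81 and 9.93 in fed and 9.68, 9.69 and 9.65 in fasted polysome RNA, which did not. The fasting effect on the receptor gene, polysome minus total, differed by -0.28 ± 0.12 (95% interval -0.53 to -0.02, adjusted p = 0.856). Ank1 came next, at -0.16 ± 0.099 (adjusted p = 0.869). It read 12.05, 12.02 and 11.97 in fed and 12.02, 12.03 and 12.11 in fasted total RNA, and 12.40, 12.38 and 12.26 in fed and 12.17, 12.30 and 12.22 in fasted polysome RNA, with overlap in both. The third was Ahsp, at 0.16 ± 0.10 (adjusted p = 0.869), which was 0.09 without fed polysome 1. For 33 of the 34 genes the interval of this difference lay inside 1.5-fold, with Aqp1 outside.

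The last comparison set polysome RNA against total RNA within each diet. Of the 34 genes, 13 were higher in polysome RNA and 2 lower in the fed, beside 24.1% and 19.4% of all genes, and 11 were higher and 2 lower in the fasted, beside 25.5% and 18.2% of all genes (limma, adjusted p under 0.05). The higher genes came to 38.2% and 32.4% of the 34 and the lower ones to 5.88% in each diet, so that in the fasted the share of higher genes was near that of all genes. The median difference, polysome minus total, was 0.09 in both diets, where all genes had 0.04 and 0.05. These 2 comparisons share no array, but both use the same estimate of each gene's spread, taken from all 12 arrays, so they are not independent. In both diets 10 genes were higher (Tal1, Bcl11a, Nfe2, Lmo2, Klf1, Hebp1, Fech, Gypc, Dmtn and Bpgm), which is 76.9% of the 13 and 90.9% of the 11, and the same 2, Rhag and Rhd, were lower. Of all tested genes, 1965 were higher in both diets, which is 80.2% of those higher in the fed and 75.9% of those higher in the fasted. A fit with the total and polysome arrays of one number as a random replicate block called 4 lower in the fed, adding Tmod1 (-0.20, adjusted p = 0.0258) and Epb41 (-0.18, adjusted p = 0.0457).

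**Figure D4:**
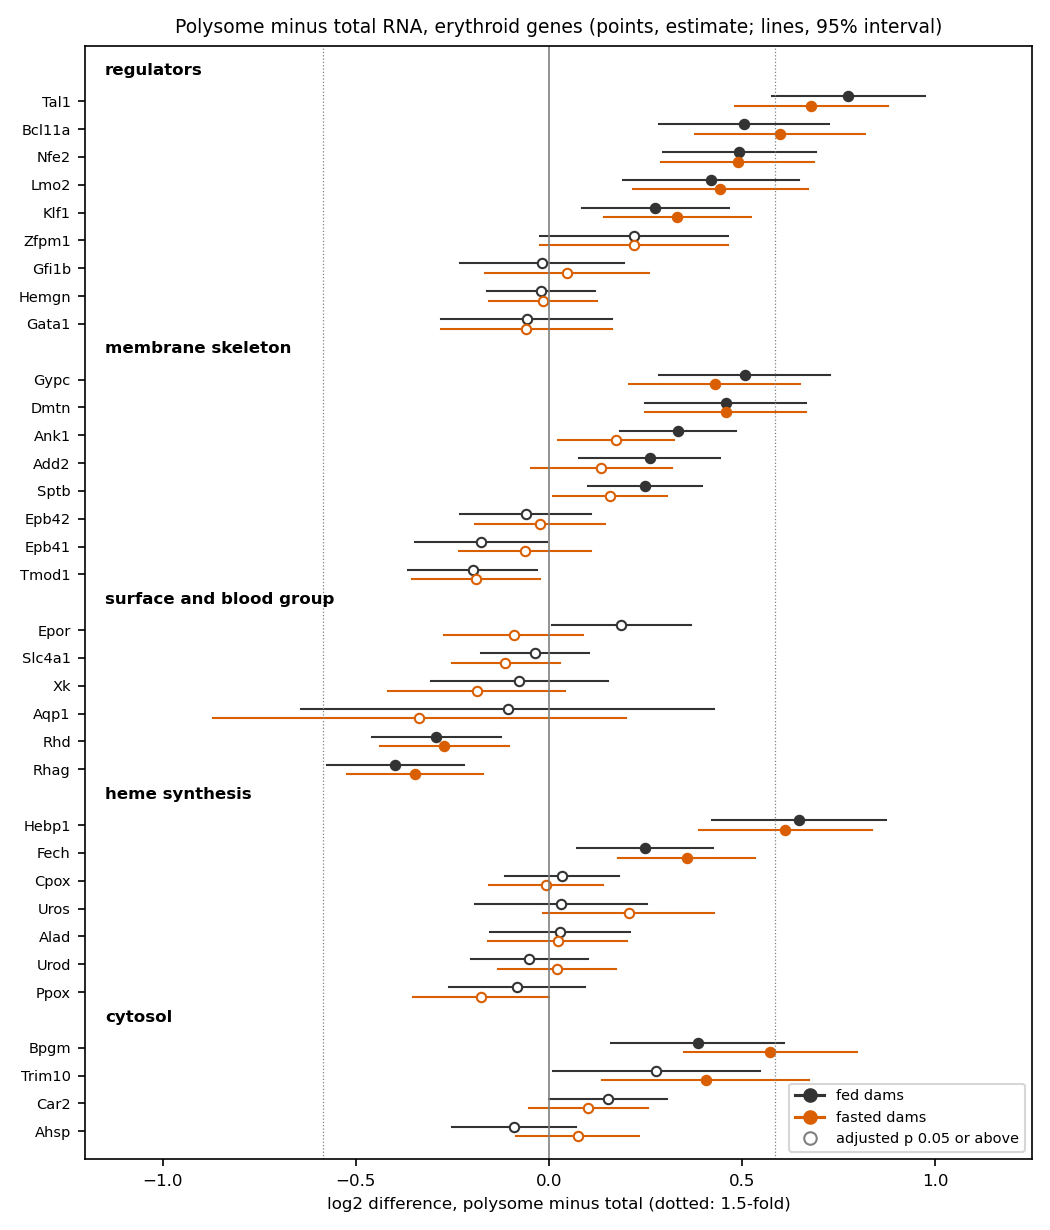
Polysome minus total difference (log2 units, x axis) of each of the 34 erythroid genes by role, in fed dams (black) and fasted dams (orange), with 95% intervals; filled points passed an adjusted p of 0.05 and dotted lines mark 1.5-fold. Tal1 has the highest value in each diet, 0.78 and 0.68, and Rhag the lowest, -0.40 and -0.35.

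The regulators divided into 5 genes that were higher in polysomes in both diets and 4 that did not pass in either. Higher genes made up 24.1% of all genes in the fed and 25.5% in the fasted. Tal1, the helix-loop-helix factor, read 10.44, 10.36 and 10.23 in fed total and 11.18, 11.22 and 10.96 in fed polysome RNA, and 10.21, 10.42 and 10.18 against 10.98, 10.94 and 10.91 in the fasted. No polysome array overlapped a total array, and the differences were 0.78 ± 0.091 (1.71-fold, adjusted p = 2.68e-05, limma) and 0.68 ± 0.091 (1.60-fold, adjusted p = 6.83e-05). Nfe2, the globin locus factor, read 11.61, 11.34 and 11.43 in fed total and 12.07, 11.94 and 11.85 in fed polysome RNA, and 11.38, 11.55 and 11.62 against 12.07, 11.94 and 11.99 in the fasted. Its polysome arrays all lay above its total arrays, by 0.49 ± 0.092 in the fed (adjusted p = 0.000812) and 0.49 ± 0.092 in the fasted (adjusted p = 0.000837).

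The Bcl11a values given above made it 1.42-fold higher in fed (0.50 ± 0.10, adjusted p = 0.00145) and 1.51-fold higher in fasted polysomes (0.60 ± 0.10, adjusted p = 0.000427, limma), with no overlap. The adaptor Lmo2 was higher by 0.42 and 0.44, and Klf1 by 0.28 ± 0.089 (adjusted p = 0.0226) and 0.33 ± 0.089 (adjusted p = 0.00816). In the fed, the Klf1 call was lost without fed total 2, fed total 3 or fed polysome 1 (adjusted p up to 0.0944). Gata1 differed by -0.06 ± 0.10 in each diet, Hemgn by -0.02 and -0.02, and Gfi1b by -0.02 ± 0.098 and 0.05 ± 0.098, while the cofactor Zfpm1 stood at 0.22 ± 0.11 in both (adjusted p = 0.133 in each). Without fed polysome 3 the Zfpm1 value in the fed was 0.33 and passed (adjusted p = 0.0273, limma). The median over the 9 regulators was 0.28 in the fed and 0.33 in the fasted.

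Of the 8 skeleton genes, 5 were higher in fed polysomes and 2 in fasted polysomes, beside 24.1% and 25.5% of all genes. The fasted count was near that share. With the random replicate block, 5 were higher and 2 lower in the fed, and 4 higher and 1 lower in the fasted, where Ank1 (adjusted p = 0.0309), Sptb (adjusted p = 0.0474) and, as the lower gene, Tmod1 (adjusted p = 0.032) were added (limma). Gypc was higher by 0.51 ± 0.10 and 0.43 ± 0.10, and Dmtn by 0.46 ± 0.096 in each diet. Ank1, whose fed polysome arrays all lay above its fed total arrays, was higher by 0.34 ± 0.070 in the fed (adjusted p = 0.00174, limma) and stood at 0.17 ± 0.070 in the fasted (adjusted p = 0.0593). Sptb was higher by 0.25 ± 0.069 in the fed (adjusted p = 0.0101) and stood at 0.16 ± 0.069 in the fasted (adjusted p = 0.0801). Add2 was higher by 0.26 ± 0.085 in the fed (adjusted p = 0.0242), a call lost in 4 of 22 alternatives (only the arrays compared, and without fed total 3, fed polysome 1 or fed polysome 2, the value being 0.16 without fed total 3), and stood at 0.14 ± 0.085 in the fasted. The diets were not shown to differ in these genes, since the test of that difference, which is the same as the test of the fasting effects above, called none. Tmod1 stood at -0.20 and -0.19, Epb41 at -0.18 and -0.06, and Epb42 at -0.06 and -0.02. Without fed polysome 1, Tmod1 (-0.26, adjusted p = 0.0183) and Epb41 (-0.22, adjusted p = 0.0463) passed in the fed, and Tmod1 passed in the fed without fasted polysome 2 (adjusted p = 0.0398) and in the fasted without fed polysome 1 (adjusted p = 0.0408, limma).

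The surface genes had 0 higher and 2 lower of 6 in each diet, with medians of -0.09 and -0.23. Lower genes made up 19.4% of all genes in the fed and 18.2% in the fasted. Rhag, the Rh-associated glycoprotein, read 12.32, 12.08 and 12.28 in fed total and 11.94, 11.75 and 11.79 in fed polysome RNA, and 12.21, 12.21 and 12.36 against 11.94, 11.92 and 11.88 in the fasted. Its polysome arrays were all below its total arrays, with differences of -0.40 ± 0.082 (adjusted p = 0.00161, limma) and -0.35 ± 0.082 (adjusted p = 0.00395). Rhd, the blood group antigen that pairs with it, was also lower, at -0.29 ± 0.077 and -0.27 ± 0.077, and the second call was lost without fasted polysome 3 (adjusted p = 0.0544). Slc4a1 stood at -0.04 and -0.11, Xk at -0.08 and -0.19, Aqp1 at -0.11 and -0.34, and Epor at 0.19 ± 0.083 in the fed and -0.09 ± 0.083 in the fasted. Without fed total 1 the Epor value in the fed was 0.25 and passed (adjusted p = 0.0418), and without fasted total 1 the Aqp1 value in the fasted was -0.63 and passed (adjusted p = 0.0376). With the replicate block fixed within a diet, Xk passed as lower in the fasted (adjusted p = 0.0448, limma).

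In the heme pathway, 2 of 7 genes were higher in both diets. That count is near the shares of all genes, 24.1% in the fed and 25.5% in the fasted. Hebp1 read 10.28, 10.22 and 9.92 in fed total and 10.65, 10.88 and 10.82 in fed polysome RNA, and 9.86, 9.98 and 10.03 against 10.64, 10.43 and 10.64 in the fasted, with no overlap. It was higher by 0.65 ± 0.10 (adjusted p = 0.000268, limma) and 0.61 ± 0.10 (adjusted p = 4e-04). Fech was higher by 0.25 ± 0.082 (adjusted p = 0.0261) and 0.36 ± 0.082 (adjusted p = 0.00342), and its fed call was lost without fed total 3, fed polysome 1 or fed polysome 2 (adjusted p up to 0.108). The enzymes between Alad and Fech in the pathway, Uros, Urod, Cpox and Ppox, ran from -0.18 to 0.21 with 0 calls, and Alad stood at 0.03 and 0.02.

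In the cytosol group Bpgm read 8.75, 8.79 and 8.45 in fed total and 9.07, 9.15 and 8.92 in fed polysome RNA, and 8.54, 8.56 and 8.77 against 9.17, 9.11 and 9.31 in the fasted. The polysome arrays did not overlap the total arrays, and the differences were 0.39 ± 0.10 (adjusted p = 0.00868, limma) and 0.57 ± 0.10 (adjusted p = 0.000637). Trim10 stood at 0.28 ± 0.12 in the fed (adjusted p = 0.0875) and was higher by 0.41 ± 0.12 in the fasted (adjusted p = 0.0177), a call lost without fasted polysome 1 or 3. Leaving out fed polysome 3 raised the fed Trim10 value to 0.44 (adjusted p = 0.00372). Car2 and Ahsp passed in neither diet in the main fit. Under trend and robust priors Car2 passed as higher in the fed (0.15, adjusted p = 0.035, limma).

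Markers of the other liver cells were also called between the fractions. The shares of all genes were 24.1% higher and 19.4% lower in the fed, and 25.5% and 18.2% in the fasted. Of 12 hepatocyte markers 1 was higher and 6 lower in fed polysomes, and 1 was higher and 7 lower in fasted polysomes, with summed intensities of 114420 to 124920 in fed polysome RNA. Of the 10 endothelial markers 7 were lower in the fed and 10 in the fasted, and of 11 macrophage markers 6 were lower in the fed, and 7 lower and 1 higher (C1qc) in the fasted. Of 10 neutrophil markers tested, 2 were higher and 3 lower in the fed and 2 higher and 2 lower in the fasted. These neutrophil counts are near the shares of all genes. Of the 6 megakaryocyte markers 1 was higher and 3 lower in the fed and 3 lower in the fasted. The 6 B lymphoid markers tested had 3 lower in the fed and 2 in the fasted, with 0 higher. Polysome and total RNA were also extracted by different procedures. The part of either in the erythroid values was not tested.

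A wider list of 122 other erythroid genes, of which 92 were tested, gave 1 call in each direction with fasting in each fraction. In total RNA 1 rose, the Lutheran antigen Bcam (0.40 ± 0.071, adjusted p = 0.023), and 1 fell, Gclc of glutathione synthesis (-0.53 ± 0.11, adjusted p = 0.0384, limma). In polysome RNA 1 rose, basigin (Bsg, 0.39 ± 0.082, adjusted p = 0.0385), and 1 fell, the transporter Abcc4 (-0.46 ± 0.11, adjusted p = 0.0451). Of all tested genes, 0.737% rose and 0.295% fell in total RNA, and 1.59% rose and 0.423% fell in polysome RNA. Alas2, the erythroid entry enzyme of heme synthesis, differed by 0.00 ± 0.061 and 0.04 ± 0.061 with fasting and by 0.01 and 0.04 between polysome and total RNA. It too lies near the top of the range of the array. The test of the difference of fasting effects called 0 of the 92.

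Between the fractions this list had 24 higher and 25 lower of 92 genes in the fed and 21 higher and 27 lower in the fasted. Of all tested genes, 24.1% were higher and 19.4% lower in the fed, and 25.5% higher and 18.2% lower in the fasted. Of 22 other membrane genes, 13 were lower in fed and 15 in fasted polysomes, with 2 and 1 higher, among them Cd44 at -0.80 in the fed. Iron supply was divided: the iron exporter Slc40a1 was lower, at -0.92 and -0.91, as were the transferrin receptor Tfrc, at -0.47 and -0.48, and Pgrmc1, at -0.81 in the fed, whereas Glrx5, which serves iron-sulphur cluster assembly, was higher by 0.84 and 0.82. In the fasted, Ube2l6, of the ubiquitin pathway, was higher at 1.05 and the transferrin receptor relative Tfr2 lower at -0.81. All these values are of whole liver, and the part of other liver cells in them was not tested. Of 6 globin genes with a probe of 1 symbol, 4 were higher in fed and 3 in fasted polysomes and 0 were lower, but globin copies are near identical and probes may be shared between them.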

How the data were processed

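Affymetrix Rat Gene 1.0 ST arrays, 12 in all, were used. The deposited intensity values were made by the authors with RMA, per the submitters' processing notes, which state no version. With 3.62 as the lowest and 21344 as the highest they are linear, so log2(value + 1) was tested. Of 28826 probes, 15209 carried 1 gene symbol, for 14497 genes. The brightest probe stood for a gene, and genes under the 40th percentile of probe means (6.07) were left out, which left 10174.

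A model of 4 group means was fitted with limma 3.58.1 in R 4.3.3 (8 residual and 5.16 prior degrees of freedom), after checks on simulated data, with p-values adjusted by Benjamini-Hochberg over all tested genes at 0.05. Arrays have no read depth; 3 arrays a group limit the precision. The members and gene lists were chosen with earlier results of these data known. Genes given array by array were, in each comparison, up to 4 with the smallest p among those past the threshold, or 3 where none passed, together with Gata1, Klf1, Epor, Slc4a1, Ahsp, Fech and Alad. Rhag was added after its values were seen. Total and polysome arrays of one number deviated together within a diet, with r from 0.154 to 0.362 in 6 pairs. In 12 pairs of other numbers r ran from -0.219 to -0.023. Deviations were taken from the mean of 3 arrays, which by itself makes r between other numbers negative where r within a number is positive. Polysome arrays of fed and fasted dams, which cannot be pairs, reached r = 0.253 for the same number and 0.249 for other numbers. These values do not settle the pairing. The numbers were taken as pairs only in the block alternatives, and the main fit held no pairs. Alternatives covered the filter, scaling, priors, arrays fitted, the block and leaving out each array.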

Additional observations from a re-analysis of the deposited data

How the results depend on the processing

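The counts of erythroid genes that differed between polysome and total RNA stayed within 1.5 times under all 22 alternatives (12 to 18 in the fed, 11 to 16 in the fasted), and 0 passed for the difference of fasting effects in all 21. With fasting, total RNA gave 1 gene (Gfi1b, adjusted p = 0.0456) under trend and robust priors, and polysome RNA gave 0 with no filter (adjusted p = 0.0591) or with only the arrays compared (adjusted p = 0.114), and 0 to 1 when single arrays were left out. In those fits fewer arrays, or more genes, entered the test. Leaving out single arrays moved the median difference of fasting effects from -0.034 to 0.068. With the replicate block the polysome counts were 17, 16 and 15 in the fed and 16, 14 and 13 in the fasted (random, fixed within a diet, fixed over all groups). The fasting calls did not change with the random block or the block fixed over all groups. The block fixed within a diet cannot test the fasting effect within a fraction, since its terms take up the diet. Values near 0, none of them called, changed sign. Fech with fasting in total RNA was 0.006 with arrays centred and 0.004 with quantile normalization, and -0.049 to 0.029 with single arrays left out. Leaving out single arrays gave Gata1 -0.107 to 0.032 with fasting in total RNA, -0.123 to 0.028 in polysome RNA, and, for polysome minus total, -0.127 to 0.024 in the fed and -0.131 to 0.008 in the fasted. It gave Klf1 -0.084 to 0.026 with fasting in polysome RNA, and Alad, for polysome minus total, -0.031 to 0.071 in the fed and -0.061 to 0.069 in the fasted.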
